A study of Ovis aries with 15 samples.

Results

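The comparison described here sets longissimus dorsi muscle of newborn lambs against the same back muscle at the stages that flank birth in this series. The newborn group (150 d of development) was sampled 1 to 3 days after birth, the earlier flank was the fetus at 120 d, and the later flank was the lamb of 12 weeks at 230 d. Each group held 3 animals with 1 array each, so 9 of the 15 arrays of the series entered the comparison, and the 6 arrays at 80 d and 100 d were left for a later check. All animals came from an untreated flock of crossed Dorset, Suffolk and Rambouillet sheep, and different animals were used at every stage. The newborn and 230 d animals were male, and 1 of the 3 fetuses at 120 d was female, which the labels do not assign to an array. The array is a cattle design (Affymetrix Bovine Genome Array), so a sheep transcript that mismatches the cattle probes can give a low signal. Probe sets were described when the 3 newborn values lay above all 6 flanking values, or below all 6. This rule picks changes that peaked or dipped around birth. It sets no size on either step, so a change that mostly lasted to 230 d can also meet it.

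At birth a lamb loses the supply of glucose, amino acids and oxygen through the placenta and begins to breathe, stand, hold its body temperature and live on milk. Skeletal muscle grows fast at this age, chiefly by adding protein and mitochondria to fibres that already exist. Cells answer a shortage or a large demand for amino acids by inducing the enzymes of serine synthesis and of transfer RNA charging, and they answer a shortage of sterols by inducing the enzymes of cholesterol synthesis.

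After control probe sets were removed, 15024 of 24016 probe sets reached a signal of 50 on at least 3 of the 9 arrays, and 7268 genes were represented by 1 probe set each. Signals are MAS5 intensities on a linear scale, scaled by the authors so that each array has the same mean. Median signal on the 9 arrays lay between 51.4 and 68.85, and 50.7% to 58.1% of probe sets reached 50. The contrast used throughout is the newborn mean of log2 signal minus the average of the 120 d and 230 d means, tested with limma and adjusted over all 15024 probe sets. The newborn median signal was 58.9 ± 6.85, against 64.1 ± 4.68 in 120 d fetuses and 66.5 ± 2.08 in 230 d lambs (mean ± SD, n = 3 each), and the median contrast of all probe sets was -0.099, so changes are best read against that shift. As a check of RNA integrity, the 3'/5' quotient of the actin probes was 0.910 ± 0.052 in newborns, 1.03 ± 0.10 in 120 d fetuses and 0.995 ± 0.054 in 230 d lambs (mean ± SD, n = 3 each). It was higher in the younger fetuses, 1.89 ± 0.29 at 80 d and 1.53 ± 0.24 at 100 d, whose arrays enter only the later check and the fit of all 15 arrays. Skeletal muscle markers were strong on every array, with summed signals of 89082 to 137837 in newborns, 58637 to 75296 at 120 d and 147055 to 191933 at 230 d.

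In newborn muscle 544 probe sets (3.62%) lay above all 6 flanking arrays and 712 (4.74%) lay below all 6. On the level of genes these were 385 above (5.3%) and 298 below (4.1%), and these shares are the background for each gene list below. Genes above all 6 were brighter than genes at large, with a median signal of 898 against 183 in newborns and 444 against 204 at 120 d. The part of signal level in the list shares was not tested. Lists were chosen with earlier results of these data known, so their shares are descriptions. At an adjusted p under 0.01 the contrast called 1 probe set higher and 1 lower, 0.00666% each. The higher one was NMRK2, and the lower one, which carries no gene symbol, was no dip, since its newborn signals of 8.1, 5.6 and 8.6 stood against 267, 218 and 227 at 120 d but only 9.1, 10.7 and 14.0 at 230 d, with both postnatal stages far under 50. At an adjusted p under 0.05 the contrast called 292 probe sets higher (1.94%) and 333 lower (2.22%). Of these, 196 probe sets above all 6 (1.3%) and 264 below all 6 (1.76%) did not overlap with the flanks, or 139 genes (1.91%) and 105 genes (1.44%). Of the 544, 10 had all 6 flanking values under 50 and so passed the signal filter through newborns alone (5 of them among the 196). Probe sets with fewer than 3 flanking values of 50 or more also needed the newborn values to pass, and these are not in that count. Of the 712, 102 had all 3 newborn values under 50 and so passed the filter through the flanks alone (60 of them among the 264). A stricter reading asks that both single steps, newborn against 120 d and newborn against 230 d, each pass at an adjusted p under 0.05. This held for 42 probe sets above all 6 (0.28%), which name 32 genes, and for 57 below all 6 (0.379%), which name 25. In the text below, rose and fell are used of genes that did not overlap and whose contrast passed at 0.05, a threshold taken after the count at 0.01 had been seen. The number of calls depends on single arrays, because without newborn replicate 2 the counts at 0.05 were 2 above and 3 below, and without any 1 of the other arrays they were 69 to 133 and 57 to 164. Newborn replicate 2 had the lowest median signal of the 9 arrays (51.4). It was the highest newborn in 271 of the 544 and the lowest in 328 of the 712. The animal and its array cannot be told apart here. With no filter on low signals the counts at 0.05 were 1 and 2. The split between rises and falls also moved with scaling, from 544 above and 712 below to 824 and 386 with array medians set equal, 607 and 547 after quantile normalization, and 378 and 1019 when the 100 brightest probe sets were left out of the scaling.

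**Figure D1:**
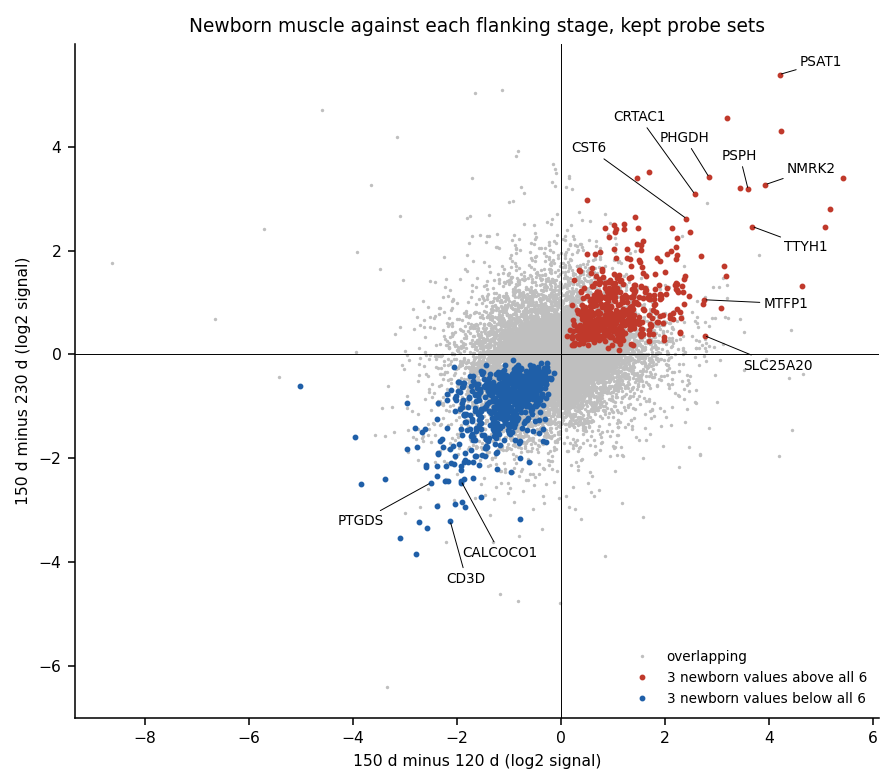
Difference in mean log2 signal between newborn muscle and 120 d (horizontal axis) and between newborn muscle and 230 d (vertical axis), 1 point for each of 15024 kept probe sets. Red points are the 544 probe sets whose 3 newborn values lay above all 6 flanking values and blue points the 712 below them; labelled genes are shown by their representative probe set, and PSAT1 lies at the far upper right.

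PSAT1 had the largest transient rise, ranked by the smaller of its steps against the flanks, and other enzymes that make serine from a glycolytic intermediate stood high with it. This transaminase of the pathway had signals of 697, 2657 and 8374 in newborns, against 127.5, 129 and 149.8 at 120 d and 62.8, 65.7 and 50.6 at 230 d. It stood 18.4-fold above 120 d and 42.0-fold above 230 d (contrast 4.80, SE 0.63, adjusted p = 0.0161). The 3 newborn values were all higher than any other value in the series, but they differed 12.0-fold among themselves. PSPH, the phosphatase of the last step, gave 592, 1063 and 3262 in newborns, against 106, 99.1 and 109.8 at 120 d and 135.5, 184 and 111 at 230 d, and rose by 3.39 on the log2 scale (SE 0.46, adjusted p = 0.0161). PHGDH, the dehydrogenase of the first step, also separated fully. Its signals were 184, 497 and 560.1 in newborns, 10.5, 112 and 116 at 120 d and 20.7, 80.9 and 25.2 at 230 d. The contrast of 3.13 missed 0.05 in limma (SE 0.83, adjusted p = 0.068), and it also missed 0.05 without any 1 of the 9 arrays. The same newborn animal, replicate 3, had the highest signal and replicate 1 the lowest for all 3 enzymes. That animal did not lead in general, since over the 544 probe sets replicate 2 was the highest newborn in 271, replicate 1 in 154 and replicate 3 in 119. The other PSAT1 probe sets, both above all 6 as well, had contrasts of 4.26 and 3.87, and a second PSPH probe set had 2.42.

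Around these 3 enzymes the neighbouring steps moved less. Of 11 genes listed for serine and one-carbon metabolism, 4 lay above all 6 (36.4%, all genes 5.3%) and 0 below (all genes 4.1%). MTHFD2, the mitochondrial folate dehydrogenase, had 208, 217 and 221 in newborns, against 166, 129 and 135 at 120 d and 129.9, 134 and 73.3 at 230 d, separated but not called (adjusted p = 0.0867), and its other 3 probe sets overlapped. SHMT2, which splits serine into glycine in mitochondria, overlapped, with 162, 294 and 354 in newborns, 162, 128 and 188 at 120 d and 120.4, 105 and 185 at 230 d. PDXK, the kinase that activates vitamin B6, the cofactor of transaminases, was above the minimum of 50 only in newborns. Its newborn values were 152.5, 220.0 and 70.4, while those at 120 d were 24.2, 4.8 and 15.9 and those at 230 d 41.5, 4.8 and 15.3, at least 2.66-fold above both when flanking signals under 50 are taken as 50. It passed the filter on low signals only through the newborn arrays, so its contrast is given as a description. Folds against a stage whose mean lies under a signal of 50 are given this way, as lower bounds, throughout.

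Transfer RNA synthetases, which load amino acids for translation, were listed together with accessory proteins of their complex. This list separated more often than genes at large. Of 18 cytosolic members, 7 lay above all 6 (38.9%, all genes 5.3%) and 0 below (all genes 4.1%). Their median contrast was 0.67, where that of all genes was -0.02. SARS1, which charges serine, had 1981, 3038 and 4880.0 in newborns, against 657, 223 and 293 at 120 d and 1091, 568.5 and 1402 at 230 d, and rose 8.81-fold over 120 d and 3.23-fold over 230 d (adjusted p = 0.0286). AARS1, for alanine, also rose, with 975.4, 1544 and 1806 in newborns, 592, 496 and 467 at 120 d and 772, 719 and 635 at 230 d (contrast 1.21, adjusted p = 0.0311). GARS1, for glycine, gave 653, 1136 and 1991 in newborns, 401, 487 and 376.5 at 120 d and 482, 592 and 632 at 230 d without passing (adjusted p = 0.0675). EEF1E1, HARS1, IARS1 and AIMP2 separated with contrasts of 0.95, 0.57, 0.68 and 0.97 and adjusted p between 0.0587 and 0.143. Of these, EEF1E1 and AIMP2 are accessory proteins of the synthetase complex and do not charge transfer RNA themselves. Of 11 mitochondrial synthetases, 1 lay above all 6 (VARS2) and 1 below (WARS2), with a median contrast of 0.19, and the difference between both lists was not tested.

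Many serine and synthetase genes are known targets of ATF4, the transcription factor of amino acid stress. Of 23 genes listed for this response, 3 lay above all 6 (13%) and 0 below, where 5.3% and 4.1% of all genes did. CHAC1, which degrades glutathione, had 176.5, 129 and 374 in newborns, against 90.8, 23.8 and 57.4 at 120 d and 64.8, 82.2 and 29 at 230 d. Its representative probe set missed 0.05 (adjusted p = 0.0678). A second probe set, with flanking signals of 3.3 to 100, needed the newborn arrays to pass the filter, so its contrast of 3.99 is given as a description. PCK2, the mitochondrial enzyme that makes phosphoenolpyruvate, rose to 113, 152 and 156 in newborns, against 45.2, 61.5 and 52 at 120 d and 93, 46.4 and 53.8 at 230 d (adjusted p = 0.0348). ATF4 messenger RNA itself was not at a peak, with 4466, 3890.3 and 7477.5 in newborns, 3545.5, 2421.5 and 2804 at 120 d and 9280.1, 8869.9 and 12709.8 at 230 d. DDIT3 and TRIB3, also targets of the factor, overlapped, with contrasts of -1.06 and 0.52 (adjusted p = 0.419 and 0.497).

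NMRK2, the muscle kinase that makes a precursor of NAD from nicotinamide riboside, was the only named gene past 0.01. Its signals were 12810.1, 12936 and 7506 in newborns, against 794, 954 and 461 at 120 d and 1355.5, 855 and 1193 at 230 d, or 15.3-fold and 9.65-fold higher (contrast 3.60, 95% interval 2.91 to 4.29, adjusted p = 0.00774). Its geometric means at 80 d and 100 d were 447 and 469, so the newborn level was high against all 4 other stages. Left without any 1 of the 9 arrays, the gene kept an adjusted p between 0.0171 and 0.0408, under 0.05 but not under 0.01. Of 16 listed genes of NAD synthesis and sirtuins, NMRK2 was the 1 above all 6 (6.25%) and NMNAT1 the 1 below (6.25%). These shares are near the 5.3% and 4.1% of all genes. NAMPT, which recycles nicotinamide, overlapped with the later flank, with 536, 861 and 528 in newborns, 239.9, 278 and 298 at 120 d and 1019.6, 954 and 630.4 at 230 d.

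**Figure D2:**
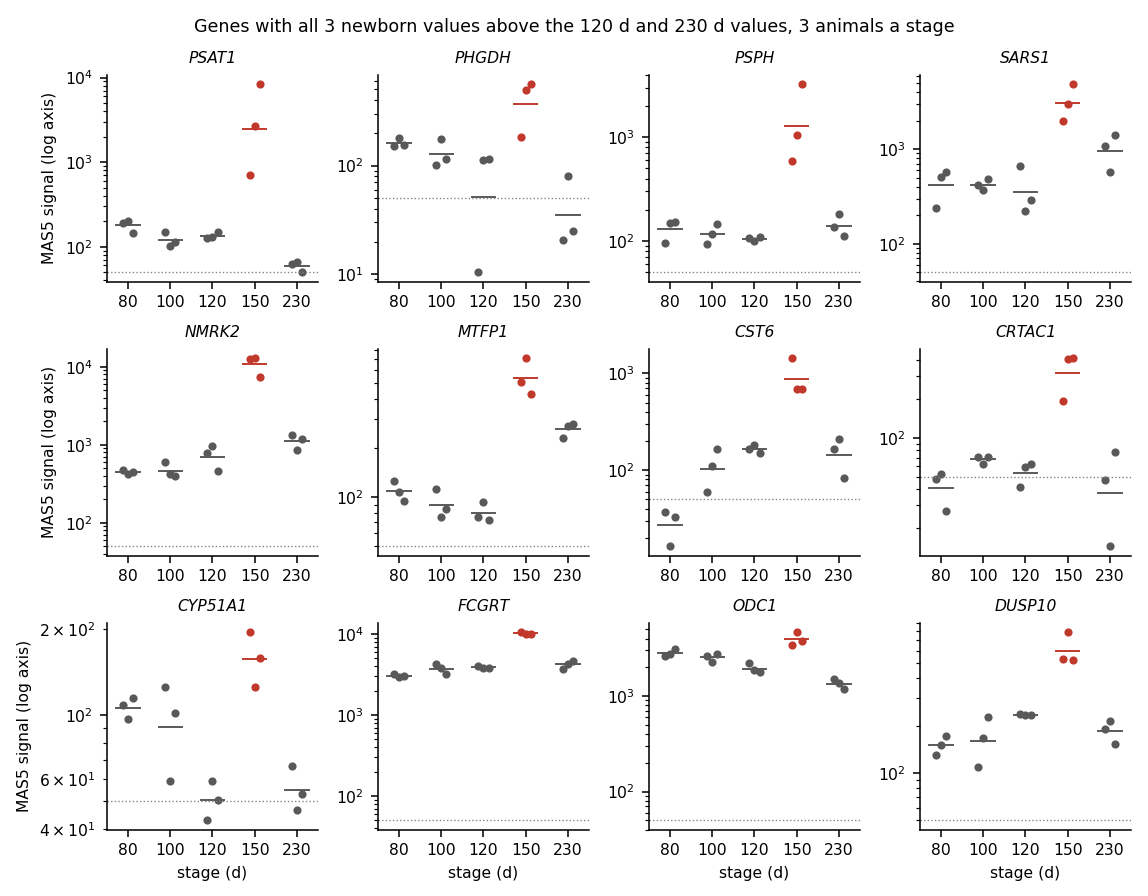
MAS5 signal on a log axis for 12 genes with all 3 newborn values above the flanking ones, by stage of development in days; each dot is 1 animal, each short line the geometric mean of 3 and the dotted line the signal minimum of 50. Newborn values (red) of PSAT1 and PSPH spread widely between animals, while those of FCGRT nearly coincide.

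Cholesterol synthesis gave a second group. Of 19 genes, 6 lay above all 6 (31.6%, all genes 5.3%) and 0 below (all genes 4.1%), and 4 of them passed. CYP51A1, which removes a methyl group from lanosterol, had 195, 126 and 159 in newborns, against 42.9, 59.1 and 50.6 at 120 d and 66.7, 46.8 and 53 at 230 d, about 3-fold above each (3.12 and 2.86, adjusted p = 0.0161). HMGCS1, the synthase at the head of the pathway, gave 961, 788 and 661 in newborns, 362, 534 and 353.5 at 120 d and 382, 368 and 329.9 at 230 d (contrast 1.05, adjusted p = 0.0348). INSIG1, which holds the sterol sensor in the endoplasmic reticulum, rose to 620.3, 405 and 465 in newborns, against 309, 286 and 344 at 120 d and 119, 131 and 134 at 230 d, so most of its contrast came from the later flank. SQLE, the squalene epoxidase, rose by 1.82 (adjusted p = 0.0223), and FDPS and NSDHL separated without passing. Of the 6, CYP51A1 also lay above all arrays at 80 d and 100 d, and the others overlapped with them. At 80 d and 100 d SQLE had geometric means of 738 and 422, and INSIG1 of 766 and 534.

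Few genes of fat cells and fat synthesis stood out. Of 23 listed, 2 lay above all 6 (8.7%), near the 5.3% of all genes. FABP4, the fatty acid carrier of fat cells and small vessels, had 994, 521 and 637 in newborns, against 83.2, 81 and 182 at 120 d and 349.6, 130.1 and 140.2 at 230 d, and rose 6.45-fold and 3.73-fold (adjusted p = 0.0271). SCD, the stearoyl-CoA desaturase, separated with 1 newborn animal at 987 and the others at 321 and 382, against 252, 255 and 180.5 at 120 d and 184, 211 and 132 at 230 d (adjusted p = 0.0741). Summed fat cell markers were 912 to 1599.7 in newborns, 403 to 740.5 at 120 d and 857 to 1243 at 230 d, with FABP4 the only 1 of 5 above all 6, while ADIPOQ averaged 233 in newborns, 41.4 at 120 d and 95.9 at 230 d with overlap, and LEP was under 50 at all 3 stages on average. Their part in the rise of FABP4 was not tested, and in whole muscle more cells of a type and more RNA per cell cannot be told apart.

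Genes for growth and protein synthesis formed a broad but shallow group. ODC1, the first enzyme of polyamine synthesis, had 3415, 4639 and 3805 in newborns, against 2209.5, 1853 and 1772 at 120 d and 1510.0, 1373 and 1174.5 at 230 d, and rose 2.03-fold and 2.91-fold (adjusted p = 0.0163). ADSL, of purine synthesis, rose by 1.42 (adjusted p = 0.0161), mainly against 120 d, and NME2, which passes phosphate between nucleotides, gave 2556, 3441 and 2490.5 in newborns, 942, 1050.3 and 912 at 120 d and 1007, 1196 and 1201 at 230 d (adjusted p = 0.0161). In ribosome assembly, 6 of 40 genes lay above all 6 (15%, all genes 5.3%) and 0 below (all genes 4.1%). EXOSC4, a subunit of the RNA exosome, IMP3 and NOP56, both of the small nucleolar particles that cut and modify ribosomal RNA, rose by 1.59, 1.04 and 1.11 (adjusted p = 0.0285, 0.0345 and 0.0317). Of 63 proteins of the cytosolic ribosome, 26 lay above all 6 (41.3%) and 0 below, and 61 had a positive contrast. The steps were small, with medians of 0.36 against 120 d and 0.34 against 230 d, and 2 genes, RPS6 and RPL29, passed. RPS6 had 17364, 17764 and 18121 in newborns, against 12136.5, 10473 and 11368 at 120 d and 8234.5, 9001 and 8845 at 230 d (adjusted p = 0.0284). After quantile normalization 1 of the 63 lay above all 6 and 2 below, so the count of separated ribosomal proteins rests on how bright signals are scaled. Translation factors had 6 of 42 above all 6 (14.3%), among them EEF2, EIF3I and EIF2B2, and 0 passed by limma at 0.05, with EIF3I nearest (adjusted p = 0.0517).

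Genes of protein folding and breakdown also separated often. Of 52 chaperones, 11 lay above all 6 (21.2%, all genes 5.3%) and 0 below (all genes 4.1%), and the median contrast was 0.59. DNAJA4, an HSP40 co-chaperone of muscle, had 963, 1325 and 666 in newborns, against 518, 292 and 218 at 120 d and 267, 269.8 and 364 at 230 d, about 3-fold above both (adjusted p = 0.0345). HSPA9, the mitochondrial HSP70, rose by 1.07 (adjusted p = 0.0341), and BAG5, a partner of HSP70, by 1.15 (adjusted p = 0.0316). DNAJB5, HSPB3 and DNAJC7 separated with contrasts of 1.74, 0.96 and 0.95. The inducible HSPA1A was not raised and overlapped, with 739.9, 857 and 811 in newborns, 1687, 894 and 817 at 120 d and 2462, 1753 and 1724 at 230 d. Of 33 proteasome genes, 6 lay above all 6 (18.2%). PSMD14, the lid enzyme that removes ubiquitin, rose to 2331, 3777.5 and 2538 in newborns, against 1222, 1275 and 1104 at 120 d and 1629, 1397 and 1737 at 230 d (adjusted p = 0.0343), and PSMC5 by 0.74 (adjusted p = 0.0433).

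A pair of genes of the ubiquitin system rose several-fold. USP2, a deubiquitinase, had 2358, 2881 and 1803 in newborns, against 486, 602 and 424.5 at 120 d and 1439, 749 and 651 at 230 d (4.62-fold and 2.59-fold, adjusted p = 0.0214). FBXO9, an F-box protein, had 2503, 2471 and 2068 in newborns, against 595, 539 and 787 at 120 d and 760.4, 1374 and 760.0 at 230 d (3.70-fold and 2.53-fold, adjusted p = 0.0179), and a second probe set rose by 1.24. FBXO32, a ligase of muscle wasting, showed no peak, with 131, 36 and 84.6 in newborns, 86, 129 and 202 at 120 d and 2699.8, 2322 and 1243 at 230 d.

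Mitochondrial genes were mostly higher in newborns than at 120 d, and some also stood above the lamb of 230 d. The share above all 6 was 35.9% of 39 genes of protein import and inner membrane organisation (14 genes), 17.9% of 67 mitochondrial ribosomal proteins (12), 12.5% of 88 respiratory chain genes (11) and 12% of 25 genes of the TCA cycle and pyruvate entry (3), with 0 below in each. For all genes the shares were 5.3% above and 4.1% below. The median step of these lists was large against 120 d and small against 230 d: 1.01 and 0.30 for import, 0.91 and 0.26 for the ribosome, 1.27 and 0.14 for the respiratory chain and 1.59 and 0.09 for the TCA cycle. MTFP1, which promotes fission of mitochondria, had 511, 711 and 432 in newborns, against 75.7, 93.1 and 72.2 at 120 d and 229.5, 273 and 282 at 230 d, 6.76-fold and 2.07-fold higher (adjusted p = 0.0161). Its second probe set, with flanking signals of 5.2 to 61.8, needed the newborn arrays to pass the filter, so its contrast of 4.41 is given as a description. CHCHD4, the import receptor that forms disulfide bonds, had 288, 514 and 305 in newborns, 184, 150.3 and 98.5 at 120 d and 156, 124 and 106 at 230 d (adjusted p = 0.0345). SAMM50, MICOS13, TIMM44 and TIMM50 rose by 1.22, 1.22, 0.94 and 0.92, while IMMT separated with 1.79 and did not pass (adjusted p = 0.0531). MRPL57, a protein of the large mitochondrial subunit, rose 2.68-fold over 120 d and 2.51-fold over 230 d, with 1009, 854 and 969.7 in newborns, 311, 383.5 and 363 at 120 d and 351.5, 445 and 338 at 230 d (adjusted p = 0.0161), though its other probe set gave 0.22.

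Among enzymes of energy metabolism IDH2 stood out. This NADP-dependent isocitrate dehydrogenase had 11526, 8044 and 6881 in newborns, against 2094, 2319.6 and 1374 at 120 d and 3087.5, 3354 and 3852 at 230 d, and rose 4.57-fold and 2.52-fold (adjusted p = 0.0161). FH and PDHB, of the TCA cycle and of pyruvate dehydrogenase, also rose, but their newborn signals were within 1.4-fold of 230 d (1.38 and 1.13). The same held for SLC25A20, the carnitine carrier of fatty acid oxidation, which stood 6.79-fold above 120 d and 1.28-fold above 230 d (adjusted p = 0.0161). Second probe sets of FH and SLC25A20 overlapped with the flanks, with contrasts of 0.59 and 0.64. In the respiratory chain NDUFA6, NDUFC2, UQCRQ and COX7A2 rose with contrasts of 1.23, 1.22, 1.67 and 1.15. When array medians were set equal, 32 of the 88 respiratory chain genes lay above all 6. ALAS1, the first enzyme of heme synthesis, had 3041, 2544 and 1230.0 in newborns, 625, 560.5 and 397 at 120 d and 992, 960.3 and 697 at 230 d (adjusted p = 0.0316).

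**Figure D3:**
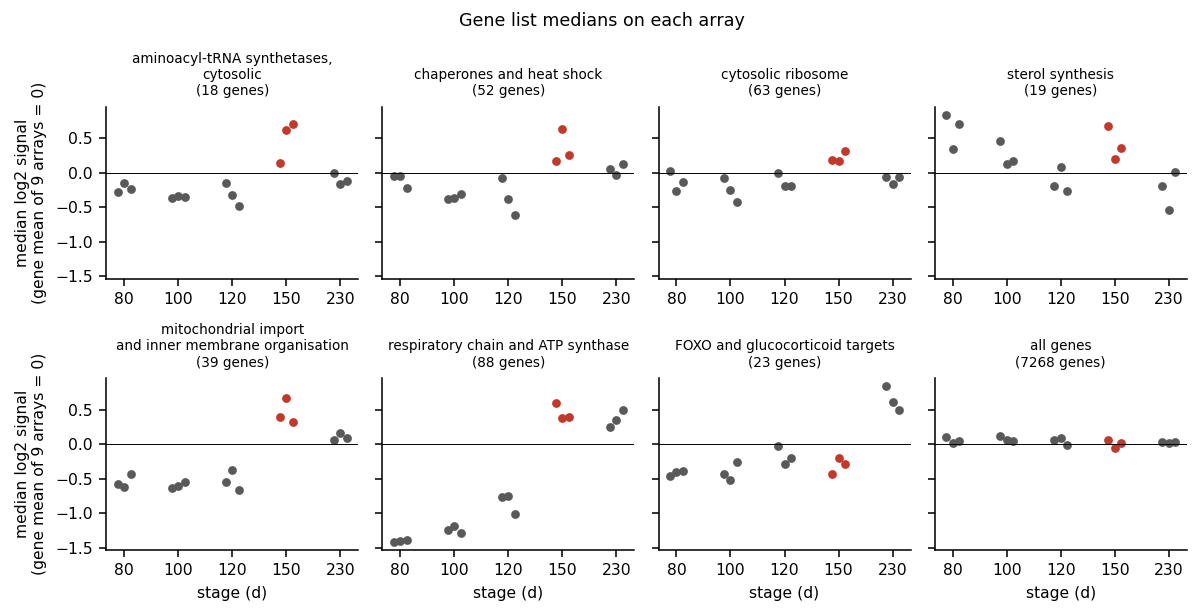
Median log2 signal of 7 gene lists and of all genes on each of the 15 arrays, by stage of development in days, with each gene set to 0 at its mean over the 9 arrays of the comparison; each dot is 1 array and newborn arrays are red. Newborn medians of the cytosolic synthetase list, which includes accessory proteins, lie at 0.14, 0.63 and 0.71, against -0.15, -0.32 and -0.47 at 120 d and between -0.16 and 0.00 at 230 d, while all genes stay within 0.1 of 0 on these 9 arrays.

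Genes with other roles rose as well. FCGRT, the Fc receptor that carries immunoglobulin G across cells and protects it from breakdown, had 10491, 10139 and 9880.1 in newborns, against 4082, 3860.1 and 3845 at 120 d and 3753, 4291 and 4704 at 230 d. The newborn animals differed only 1.06-fold among themselves, and the gene rose 2.59-fold over 120 d and 2.40-fold over 230 d (contrast 1.32, SE 0.16, adjusted p = 0.0161). JCHAIN, which joins the units of secreted IgA and IgM, had 407, 391 and 466 in newborns, 184, 254 and 186 at 120 d and 188, 228 and 203 at 230 d (adjusted p = 0.0263). The B cell markers CD79A and MS4A1 averaged 9.37 and 3.03 in newborns, 4.87 and 7.80 at 120 d and 11.5 and 8.83 at 230 d, all far under 50. DUSP10, a phosphatase of stress kinases, had 529.5, 786 and 523 in newborns, 239, 235 and 233 at 120 d and 191, 213 and 154 at 230 d and passed both single steps (adjusted p = 0.0161). HDDC3, TXNDC17, PRADC1, ARL1, HINT2, SSR4, RANBP1, CSRP2 and NNAT also passed both, and are named for that, with contrasts from 0.92 for SSR4 to 1.70 for NNAT, though second probe sets of RANBP1 and NNAT overlapped (-0.68 and 1.57).

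The remaining leaders of the ranking were CST6, CRTAC1 and TTYH1. CST6, a secreted inhibitor of cysteine proteases, had 1437.5, 694 and 684 in newborns, against 164, 182 and 151 at 120 d and 167, 212 and 83.8 at 230 d, 5.33-fold and 6.13-fold higher (adjusted p = 0.0161), while a second, dimmer probe set gave -0.74 without passing. CRTAC1, a secreted protein first known from cartilage, had 193, 405.5 and 413 in newborns, 41.5, 59.1 and 62.2 at 120 d and 47.4, 14.4 and 76.8 at 230 d (contrast 2.83, adjusted p = 0.0263). TTYH1, a membrane protein of the tweety family, had 423, 327 and 50.6 in newborns, against 12.3, 10.8 and 24.9 at 120 d and 30.5, 32.2 and 42.5 at 230 d, and, as for PDXK, it passed the filter only through the newborns, of which 1 was itself at the minimum. NOA1A had 229.5, 383 and 141 in newborns, 94.2, 85 and 58.1 at 120 d and 62, 80.8 and 95.1 at 230 d (adjusted p = 0.039). HLF, a transcription factor with a daily rhythm in other tissues, rose to 582.5, 774 and 669 in newborns, against 279.8, 278 and 326 at 120 d and 204, 409.6 and 213.5 at 230 d (adjusted p = 0.0346). However, a second, dimmer HLF probe set overlapped (contrast 1.01), and 7 of 8 clock genes had a negative contrast.

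Among the genes that dipped at birth, PTGDS, a prostaglandin D synthase, had 14.5, 13.2 and 40.3 in newborns, against 106, 114 and 115 at 120 d and 77.2, 151 and 113.5 at 230 d, and was at least 2.23-fold and at least 2.20-fold lower (contrast -2.49, adjusted p = 0.0179). SLC43A1, a carrier of large neutral amino acids, had 20.4, 9.7 and 25.8 in newborns, 63.2, 74.2 and 59.6 at 120 d and 53.1, 88.5 and 111 at 230 d (adjusted p = 0.0224). SLC8B1, the sodium-calcium exchanger of mitochondria, LGI1, a secreted leucine-rich repeat protein, and PDE9A, a cyclic GMP phosphodiesterase, fell with contrasts of -2.15, -1.93 and -1.54 (adjusted p = 0.0379, 0.0161 and 0.0372). LGI1 had 22.1, 43.2 and 27.9 in newborns, against 101, 100.2 and 110.0 at 120 d and 103, 170.2 and 113 at 230 d, with even values on the flanks. PTGDS, SLC43A1 and LGI1 had all newborn values under 50 and passed the signal filter through the flanking arrays alone. Their contrasts and adjusted p are therefore given as descriptions. VIPR2, a receptor of vasoactive intestinal peptide, fell by 1.98 (adjusted p = 0.0336), but its second probe set gave 0.32. CCDC174, PRMT2 and LOC783533 were also among the 12 largest falls, with contrasts of -2.03, -1.59 and -1.73, though a second PRMT2 probe set overlapped (-0.67).

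Some genes of the dip are known to hold back growth or the cell cycle, and they are named here for that role after their values had been seen. No gene list covers this role, so no share of such genes can be given. Of 29 listed cell cycle genes, 2 lay below every flanking value (6.9%), and of 8 listed MYC and MAX network genes 1 did (12.5%). Over all genes this share was 4.1%. BTG1, an antiproliferative gene, had 3458, 2418 and 3272 in newborns, against 7057.5, 5559 and 6469.8 at 120 d and 8119, 6515 and 6621 at 230 d, 2.10-fold and 2.34-fold lower (adjusted p = 0.0227). ZFP36L2, which speeds the decay of messenger RNAs, had 409.8, 569.8 and 670.0 in newborns, 1224, 1231 and 1371.5 at 120 d and 1979, 1638.5 and 1398 at 230 d (adjusted p = 0.0175). A second, dimmer ZFP36L2 probe set overlapped, with a contrast of -0.68. MXI1, an antagonist of MYC at its DNA sites, fell by 1.12 (adjusted p = 0.0253) and by 1.35 in a second probe set, whereas another overlapped and gave -0.44. MYC itself overlapped, with 924, 923.5 and 1116 in newborns, 845, 989 and 871 at 120 d and 758, 497.5 and 481 at 230 d. CDKN2C, an inhibitor of the G1 cyclin-dependent kinases, had 92.1, 69.6 and 85.5 in newborns, 130.4, 167 and 135 at 120 d and 284.5, 311.5 and 220.3 at 230 d (adjusted p = 0.0179). YPEL3, linked to growth arrest, had 264, 204 and 733 in newborns, 859, 1018 and 1507 at 120 d and 1735, 2005 and 1636 at 230 d, with 1 newborn animal near the fetal level (adjusted p = 0.0322).

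**Figure D4:**
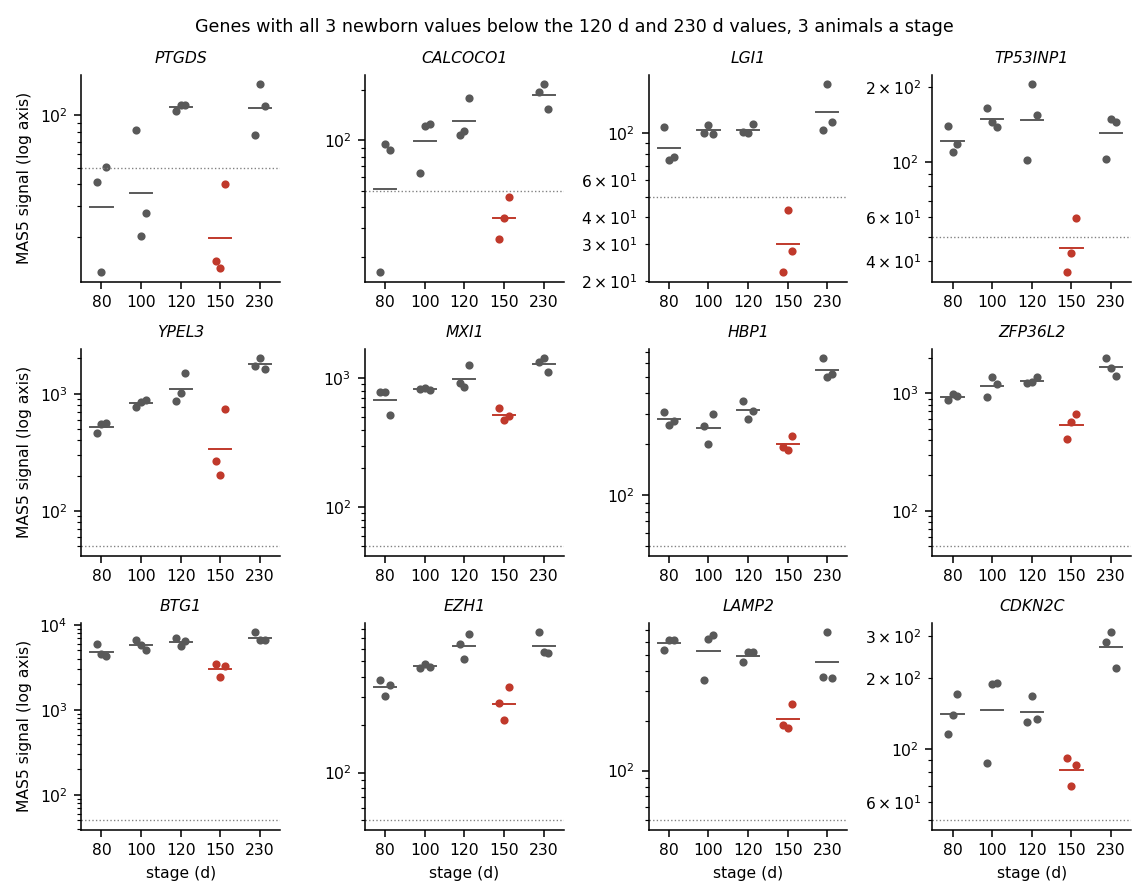
MAS5 signal on a log axis for 12 genes with all 3 newborn values below the flanking ones, by stage of development in days; each dot is 1 animal, each short line the geometric mean of 3 and the dotted line the signal minimum of 50. Newborn values are red; PTGDS and CALCOCO1 were also low on some arrays at 80 d, while LGI1, ZFP36L2, BTG1 and LAMP2 were lower in newborns than on every other array.

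The 23 genes listed as targets of FOXO factors or glucocorticoids, which promote catabolism in fasting muscle, had a median contrast of -0.54. In this list 0 lay above all 6 (all genes 5.3%) and 4 below (17.4%, all genes 4.1%). HBP1, a transcriptional repressor, had 192.5, 184 and 225 in newborns, against 357, 283 and 312 at 120 d and 642, 496 and 516 at 230 d (adjusted p = 0.0227), and its second probe set fell by 1.54. FOXO4, PNRC1 and GABARAPL1 separated with contrasts of -1.03, -0.61 and -0.50 and did not pass, although a second GABARAPL1 probe set fell by 0.98 (adjusted p = 0.0432). The low median came mostly from the later flank, with median steps of -0.31 against 120 d and -1.08 against 230 d. PDK4, the kinase that shuts off pyruvate dehydrogenase, was highest at the later flank, with 1723.5, 7945 and 4359 in newborns, 252, 179 and 216 at 120 d and 18110.0, 13569.8 and 14499 at 230 d. TP53INP1, a stress gene that acts in autophagy, fell to 36.2, 43.1 and 59.6 in newborns, against 102, 206 and 155 at 120 d and 103, 149 and 145.5 at 230 d (adjusted p = 0.0241). CALCOCO1, an autophagy receptor, had 25.8, 34.3 and 45.9 in newborns, 107, 114 and 179.9 at 120 d and 196, 217 and 155 at 230 d, at least 2.60-fold and at least 3.74-fold lower (adjusted p = 0.0161). As for PTGDS, CALCOCO1 passed the filter through the flanking arrays alone, so its contrast is a description. LAMP2, a lysosomal membrane protein, fell by 1.21 (adjusted p = 0.0378), with 0.17 in a dimmer probe set. Of 24 listed autophagy and lysosome genes, 3 lay below all 6 (12.5%), where 4.1% of all genes did.

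Immediate early genes were split. DUSP10 was the 1 of 24 above all 6, and 5 lay below (20.8%), of which BTG1, ZFP36L2 and CCN1, a secreted matrix protein, passed. Over all genes 5.3% lay above and 4.1% below. CCN1 had 199, 357 and 302 in newborns, 496, 433 and 421 at 120 d and 631, 725 and 669 at 230 d (adjusted p = 0.0415). FOS, the classical member, had 206.5, 388 and 1887 in newborns, against 125, 65.6 and 84.2 at 120 d and 980.3, 1402 and 779 at 230 d, so it followed no peak or dip. Among 27 chromatin modifiers, HDAC1 lay above all 6 and 5 genes below (18.5%). HDAC1, a deacetylase, had 1787, 1246 and 888 in newborns, 717, 620.1 and 531 at 120 d and 619.5, 557 and 516 at 230 d (adjusted p = 0.0436). EZH1, a methyltransferase of Polycomb complexes that marks histones for repression, had 273, 213 and 344 in newborns, 639.8, 522 and 741 at 120 d and 763, 569.9 and 562.5 at 230 d, 2.31-fold and 2.30-fold lower (adjusted p = 0.0287). CREBBP, an acetyltransferase, fell by 0.84 (adjusted p = 0.0407), and KAT2B, KDM3A and HDAC7 separated without passing, although a second KDM3A probe set fell by 0.90 (adjusted p = 0.0316).

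Some genes of immune and vessel cells were low in newborns. CXCL14, a chemokine, and PTX3, a pattern recognition protein, fell with contrasts of -1.40 and -1.50 (adjusted p = 0.0394 and 0.0341). Of 17 macrophage and innate genes, 4 lay below all 6 (23.5%), where 4.1% of all genes did. CD68, the macrophage marker, had 80.6, 95.5 and 89.7 in newborns, 116, 130.0 and 116 at 120 d and 172, 119 and 133 at 230 d (adjusted p = 0.115). Summed macrophage markers overlapped, at 432 to 604 in newborns, 493 to 647 at 120 d and 386 to 756 at 230 d. CD3D, part of the complex through which T cells sense antigen, fell to 10.7, 23 and 5.8 in newborns, against 58, 56.7 and 36.5 at 120 d and 96.8, 167 and 70.5 at 230 d (adjusted p = 0.0223), but the other 5 T cell markers overlapped and their sum with CD3D was 204 to 341 in newborns, 245 to 335 at 120 d and 557 to 784 at 230 d. CD3D also passed the filter through the flanking arrays alone, so its contrast is a description. Of 6 endothelial markers VWF and TEK lay below all 6, and their summed signal was 1761 to 3300 in newborns, 5513 to 6519 at 120 d and 2723 to 2993 at 230 d. Markers of erythroid cells summed to 284 to 592 in newborns, 12397 to 13018 at 120 d and 163 to 191 at 230 d. The part of cell composition in any of the rises and falls was not tested.

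Other lists had few or no genes outside the flanking values. None of 28 collagens, 10 myogenic factors, 9 neuromuscular junction genes, 17 genes of the insulin-like growth factor axis or 10 of the thyroid and steroid axis lay above or below all 6. Over all genes 5.3% lay above and 4.1% below, so a count of 0 in the shorter lists is near that background. Collagens had a median step of -0.44 against 120 d and 0.78 against 230 d, so the typical newborn level lay between the flanks. Cell cycle genes had steps of -0.75 and 0.35, and 2 of 29, FANCM and CDKN2C, lay below all 6. Oxidative stress genes had 3 of 34 above all 6 (8.82%) and 3 below, and TXN, the thioredoxin, rose by 0.82 (adjusted p = 0.0438). Interferon response genes had 1 of 16 above, EIF2AK2, whose flanking values were all under 50 and which passed the filter only through newborns, and 1 below, TRIM38, which fell by 2.03 (adjusted p = 0.0461). Of 81 zinc finger genes 2 lay above (2.47%) and 5 below (6.17%), and of 23 genes of the TGF-beta and activin family BMPR2 lay above and SMAD2 below. MLF1 was the 1 of 15 load-responsive muscle genes above all 6 and rose by 1.36 (adjusted p = 0.0161), though a second probe set overlapped (1.19). Genes of glycolysis had steps of 0.80 and -0.46, with PGAM1 and ENO1 the 2 of 29 above all 6.

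**Figure D5:**
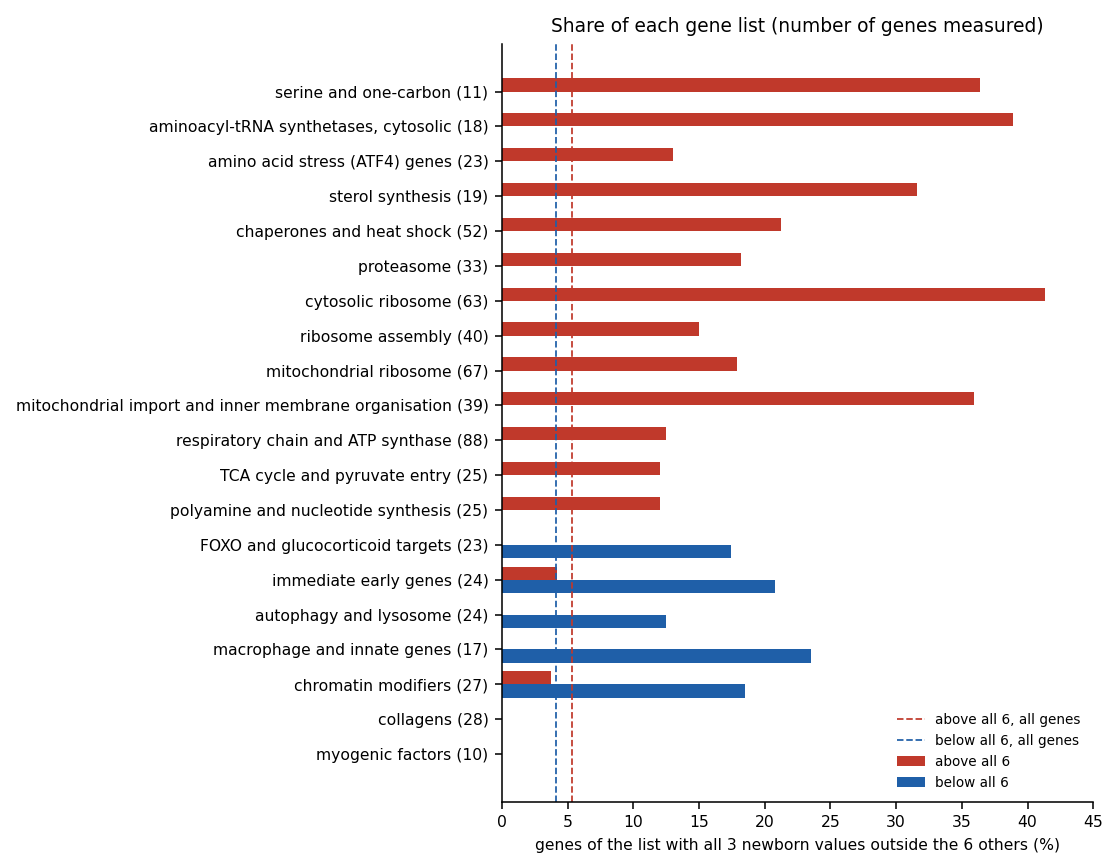
Share of the measured genes of 20 lists whose 3 newborn values lay above all 6 flanking values (red) or below all 6 (blue), in percent; dashed lines give the same shares over all 7268 genes, 5.3% above and 4.1% below, and the number of genes stands in brackets. Cytosolic ribosome, synthetases with accessory proteins, serine synthesis and mitochondrial import have the longest red bars, at 41.3%, 38.9%, 36.4% and 35.9%.

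The arrays at 80 d and 100 d, which took no part in choosing these genes, were set against the same newborn arrays. Of the 544 probe sets above the flanking stages, 410 (75.4%) were also above all 6 of these younger arrays, where 13.9% of all probe sets were. Of the 712 below, 460 (64.6%) were also below the younger arrays, where 21.5% of all were. The newborn values are shared between both comparisons and the actin quotient differs at 80 d and 100 d, so these shares are a description, and the part of RNA quality in them was not tested. Among the 42 and 57 probe sets that passed both single steps, 37 and 40 also stood apart from 80 d and 100 d. PSAT1, PSPH, NMRK2, FCGRT, MTFP1 and IDH2 were highest at birth against all 12 other arrays, and LGI1, ZFP36L2, BTG1, TP53INP1 and LAMP2 were lowest. Others overlapped with 80 d or 100 d, among them the sterol genes SQLE, HMGCS1 and INSIG1 of the rises and PTGDS, CALCOCO1, YPEL3, MXI1, EZH1, HBP1 and CDKN2C of the falls. NNAT, an imprinted gene, had a geometric mean of 320 in newborns but 1985 at 80 d and 601 at 100 d, so its rise over 120 d followed a higher early fetal level.

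With all 15 arrays in the fit, which lends the spread of the fetal stages to the test, 189 probe sets above all 6 (1.26%) and 211 below (1.4%) passed the contrast at 0.01, or 141 genes above (1.94%) and 83 below (1.14%). Of the 196 above and 264 below called at 0.05 from 9 arrays, 175 (89.3%) and 197 (74.6%) were among them. In that fit PSAT1 and PSPH had adjusted p of 0.000638 and 0.000651, NMRK2 of 4.1e-05, IDH2 of 0.00101 and MTFP1 of 0.000437, and PHGDH still missed 0.01 at 0.0131. Among falls LGI1 had 0.000651, ZFP36L2 0.00101 and YPEL3 0.00274, while PTGDS and CALCOCO1 missed 0.01 at 0.0103 and 0.0121. LGI1, PTGDS and CALCOCO1 are among the genes that passed the filter through the flanks alone.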

How the data were processed

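Each animal gave 1 longissimus dorsi RNA sample and 1 array of cattle probes. The deposited values are MAS5 signal intensities, which the authors computed from perfect-match and mismatch probes with a one-step Tukey biweight after a background correction over grids, and scaled to a common array mean. A version of the MAS5 software was not given in the sources used here. Here 112 control probe sets were removed, and the filter asked for a signal of at least 50 on 3 or more of the 9 arrays at 120 d, 150 d and 230 d. GEO's platform annotation gave 1 symbol for 9548 of the 15024 kept probe sets, no symbol for 5414 and more than 1 for 62, and only the first kind named genes. Where a gene had several kept probe sets (1777 genes), the brightest by its mean log2 value on those arrays stood for it.

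Log2 signals were fitted with limma 3.58.1 in R 4.3.3 (stage means, moderated variances, 6 residual degrees of freedom, two-sided), with the contrast of 150 d minus the mean of 120 d and 230 d and with both single steps. P-values were adjusted by Benjamini-Hochberg over all kept probe sets, with a threshold of 0.01, and script checks ran on simulated data. With 3 arrays a stage, their number limits the precision, and p-values measure the spread between these animals. Sex was not a covariate, because the labels do not give it by animal. Genes were named by the 12 largest rises and falls on the smaller single step among those past the threshold, by up to 5 members of each of 40 gene lists, and by both single steps at 0.05. Since 1 gene passed 0.01, the same ranking at 0.05 was added after the values had been seen. Members and lists were chosen with earlier results of these data known. Plots used Python 3.11.15 with matplotlib 3.10.9. Alternatives were other scalings, an offset, other filters, all 15 arrays (10 residual degrees of freedom), a trended robust prior, the moderated F-statistic, a replicate block and each array left out.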

Additional observations from a re-analysis of the deposited data

How the results depend on the processing

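At the adjusted p of 0.01 in limma, the contrast called 1 probe set higher and 1 lower, each without overlap, and these counts moved under nearly every alternative. Calls higher and lower, then those that lay above and below all 6, were 78, 49, 65 and 41 with an offset of 16, 108, 77, 82 and 69 with a signal minimum of 100, 281, 287, 189 and 211 with all 15 arrays, 299, 180, 189 and 134 with a trended robust prior, 481, 468, 97 and 94 with the moderated F-statistic, and 292, 333, 196 and 264 at a threshold of 0.05. Quantile normalization and scaling without the 100 brightest probe sets gave 0 higher calls and 0 peaks, and array medians set equal gave 0 dips. No filter on low signals, both single steps at 0.01, and the replicate block gave 0 in all 4 counts, and leaving out single arrays gave 0 to 1. At an unadjusted p under 0.05, 495 probe sets lay above and 679 below all 6 in the main fit, 475 and 655 with the block, and 554 and 770 with no filter. Same-numbered arrays had deviations correlated between -0.0488 and 0.0711, and 6 of 9 arrays correlated best with their own number. Different animals were used at every stage, so the numbers do not pair animals. Whether a number marks anything else shared was not tested. With the replicate block 62 above and 52 below passed at 0.05.

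The counts above and below all 6 were 824 and 386 with array medians set equal, and leaving out 1 array, which relaxes the condition, gave 600 to 927 and 796 to 1390. Contrasts changed sign for ATF4 with array medians set equal (0.056), for RPL34 (-0.0090) and RPL22 (-0.091) after quantile normalization, and for ATF4, DDIT3 and FOS with 1 newborn array left out, when ATF4 ranged over -0.38 to 0.094, DDIT3 over -1.67 to 0.068 and FOS over -0.088 to 1.51. Of 113 described genes past 0.05, 37 passed with the block, 2 passed without newborn replicate 2, and 38 to 65 passed without another array. The cause was not tested. Signals under 50 limit folds to lower bounds.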
